A study of Homo sapiens with 8 samples.

Results

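The autophagy machinery and its cargo receptors were examined as a set of 41 genes defined by name, with no measured value in the rule, covering the initiation kinase complex, the class III PI3-kinase complexes, the ATG9 and ATG2 lipid supply with the PI3P effectors, the conjugation enzymes, the ATG8 family, the cargo receptors and DRAM1. Of these, 39 were measured here, each by 1 probe set, among 17687 genes and 20893 gene probe sets on the array. RUBCN and WDR45 were not analysed here, as no probe set carries these symbols. Expression was measured on 8 Clariom S HT arrays of THP-1, a human monocytic leukaemia line, so that all arrays come from 1 line. All cells were differentiated to macrophage-like cells with PMA (100 ng/mL). They fell into 4 groups with 2 arrays each: epirubicin (0.25 µg/mL, 24 h) followed by LPS (100 ng/mL, 3 h), epirubicin alone, LPS alone, and untreated cells with neither agent. Epirubicin is an anthracycline that intercalates into DNA, and LPS is the bacterial ligand of TLR4. The sources used here do not say that the 2 arrays of a group came from separate cultures. The p-values cover only the differences between duplicates, and these may be purely technical.

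Autophagy encloses cytoplasm in a double membrane and delivers it to lysosomes. The ULK1 kinase complex starts the process, the class III PI3-kinase marks the membrane with PI3P, ATG9 vesicles and ATG2 supply lipid, and ubiquitin-like conjugation attaches ATG8 proteins such as LC3 and GABARAP to the growing membrane, where cargo receptors such as p62 bind them. In macrophages the pathway clears bacteria and damaged mitochondria and limits inflammasome activity, and much of it is controlled on proteins rather than transcripts, which these arrays do not show.

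The sequences upstream of 5 members are given because the results turn on these genes, with DRAM1 and OPTN, the largest rises under LPS, ATG9A and ATG4C, the largest falls, and SQSTM1, the receptor p62, which also rose. Each is the 250 bases before a RefSeq transcription start on GRCh38.p14, read 5′ to 3′ on the strand of the gene, with capitals marking a match to the κB consensus, the binding site of NFκB. The windows lie at chr10:13099832-13100081 on the plus strand for OPTN, chr12:101877330-101877579 on the plus strand for DRAM1, chr5:179820655-179820904 on the plus strand for SQSTM1 (1 of 3 listed starts), chr2:219229637-219229886 on the minus strand for ATG9A and chr1:62783882-62784131 on the plus strand for ATG4C.
OPTN: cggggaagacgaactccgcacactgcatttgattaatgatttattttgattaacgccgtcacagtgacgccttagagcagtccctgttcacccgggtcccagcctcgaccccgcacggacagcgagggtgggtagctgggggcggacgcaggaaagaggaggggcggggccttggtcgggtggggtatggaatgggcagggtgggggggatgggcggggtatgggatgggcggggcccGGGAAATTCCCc
DRAM1: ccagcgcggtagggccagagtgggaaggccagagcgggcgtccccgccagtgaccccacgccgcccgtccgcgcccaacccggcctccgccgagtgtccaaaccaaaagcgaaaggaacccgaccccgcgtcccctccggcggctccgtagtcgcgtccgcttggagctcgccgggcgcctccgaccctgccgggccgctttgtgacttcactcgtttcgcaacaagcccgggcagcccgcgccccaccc
SQSTM1: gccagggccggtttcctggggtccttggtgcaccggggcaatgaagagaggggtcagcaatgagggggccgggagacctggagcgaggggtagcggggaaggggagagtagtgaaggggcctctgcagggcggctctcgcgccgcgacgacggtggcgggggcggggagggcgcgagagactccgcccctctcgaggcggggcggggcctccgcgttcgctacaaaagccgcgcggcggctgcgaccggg
ATG9A: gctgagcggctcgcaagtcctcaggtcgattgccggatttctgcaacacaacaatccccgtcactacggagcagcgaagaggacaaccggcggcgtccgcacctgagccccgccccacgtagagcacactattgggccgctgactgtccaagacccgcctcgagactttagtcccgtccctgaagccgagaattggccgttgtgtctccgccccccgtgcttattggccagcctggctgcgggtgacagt
ATG4C: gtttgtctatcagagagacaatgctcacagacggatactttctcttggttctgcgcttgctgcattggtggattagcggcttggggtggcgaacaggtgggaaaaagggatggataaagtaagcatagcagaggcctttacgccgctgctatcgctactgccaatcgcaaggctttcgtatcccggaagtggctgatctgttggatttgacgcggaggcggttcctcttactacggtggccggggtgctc
The OPTN window ends in 2 overlapping κB matches, which begin 12 and 11 bases before the start, and the other 4 windows hold no match to any of the 3 motifs searched. The motifs were searched on both strands in the 46 promoters listed for 36 of the 41 members. The κB consensus was present in 10.9% of them (BECN1, ATG16L2, WDR45 and both overlapping OPTN starts), against 5.21% of all 35116 promoters. CACGTG, the core of the element bound by TFEB and TFE3, which activate lysosomal and autophagy genes, was present in 4.35% (ATG3 and ATG14) against 6.34% of all promoters, and TGANTCA, the AP-1 site, in 2.17% (WDR45) against 6.57%. A match describes the letters of the window and is no measured binding site.

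The authors deposited 1 log2 value per probe set, normalized over all arrays together. Array medians lay between 5.78 and 5.88 on this scale, duplicates correlated at 0.986 to 0.987 across probe sets, and arrays of different groups at 0.948 to 0.984. The background probes of the array had medians between 3.91 and 4.10. Of 10 macrophage markers, MRC1 stayed below 6 in every group and CD163 in epirubicin cells, and the log2 of the summed level of the list lay between 18.95 and 19.14 over the 8 arrays. This sum is weighted to the highest marker, TYROBP, at 17.81 to 18.05, and says little about the others. CD14 had lower values in epirubicin+LPS than in LPS cells (11.06 against 13.07, group means) and in epirubicin than in untreated cells (13.79 against 14.83). CSF1R fell in both LPS comparisons, with log2 fold changes of −1.12 after epirubicin and −1.32 without it. Of 6 measured markers of undifferentiated cells, MPO and CD34 had group means below 6 throughout. AZU1 and PRTN3 were clearly expressed, with 13.87 to 14.52 and 10.18 to 10.79 over the 8 arrays. The log2 of the summed level of the list lay between 14.36 and 14.78, weighted in the same way to AZU1. In this list MYB had group means of 9.92, 11.34, 10.38 and 12.68 in epirubicin+LPS, epirubicin, LPS and untreated cells, while CTSG had 6.72, 6.04, 8.47 and 6.05 and so ran the other way under LPS. Of 6 lymphocyte markers CD3E, CD3D, CD2 and MS4A1 were below 6 throughout, but CD79A had 8.32, 7.32, 9.17 and 7.80 in the same order and rose under LPS without epirubicin (1.36, adjusted p = 0.0292 from limma). NKG7, also a lymphocyte marker, lay between 5.73 and 7.04 over the 8 arrays. COL1A1, DCN, EPCAM, CDH1 and KRT5, 5 of 6 markers of fibroblasts and epithelium, had group means below 6. The remaining marker, COL1A2, lay between 7.44 and 8.59 over the 8 arrays. The part of these shifts in the results below was not tested.

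Under LPS, 13 of the 39 members passed the threshold, an unadjusted p of at most 0.01 with a fold change of at least 2, in the limma model over all 4 groups. Of these, 5 rose, namely DRAM1, OPTN, ATG101, SQSTM1 and MAP1LC3A, and 8 fell, namely ATG9A, ATG4C, WIPI1, UVRAG, ATG2B, PIK3R4, BNIP3L and WIPI2. Across all probe sets 11.7% passed (5.42% higher and 6.31% lower), and 20.6% of the 11098 probe sets with a group mean of at least 6. The same 13 members were the ones with an adjusted p up to 0.05 (Benjamini-Hochberg over all probe sets), where 11.5% of all probe sets were. The median log2 fold change of the members was −0.36, with 29 of 39 below 0. The median of all probe sets was −0.05, and that of probe sets with a group mean of at least 6 was −0.15. In cells given epirubicin first, 9 members passed in the comparison of epirubicin+LPS with epirubicin, the same 5 upward and ATG4C, ATG9A, WIPI1 and WIPI2 downward. There 12.2% of all probe sets passed (5.53% higher and 6.65% lower), and 21.1% of those with a group mean of at least 6. The members had a median of −0.35, against −0.03 for all and −0.15 for probe sets with a group mean of at least 6. BNIP3L made it 10 members with an adjusted p up to 0.05 after epirubicin, where 12% of all probe sets were. By unadjusted p up to 0.05 alone there were 18 members in each LPS comparison, where 25.4% of all probe sets were with and 24% without epirubicin. In bulk RNA, fewer cells expressing a gene cannot be told apart from less of its transcript per cell.

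**Figure D1:**
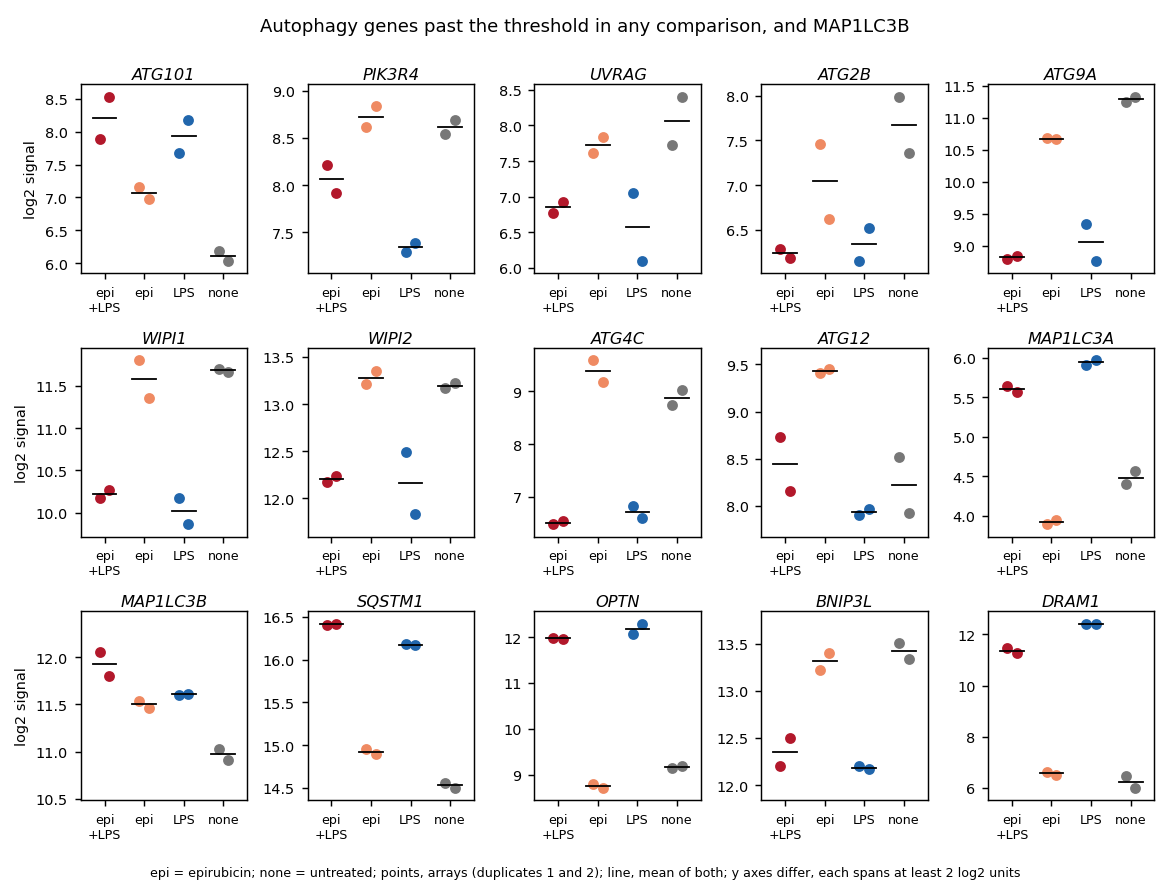
Log2 signal of the 14 members past the threshold in any comparison and of MAP1LC3B, with a point per array, a line for the mean of both arrays, and groups from left to right epirubicin+LPS, epirubicin, LPS and untreated. DRAM1 and OPTN show both LPS groups far above both groups without LPS, ATG9A and ATG4C far below, and ATG12 has its highest points in epirubicin cells.

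DRAM1, a lysosomal membrane protein induced by p53 that promotes autophagy, had the widest range of all members. It measured 11.46 and 11.27 in epirubicin+LPS cells, 6.63 and 6.52 in epirubicin cells, 12.42 and 12.40 in LPS cells, and 6.47 and 6.01 in untreated cells. All arrays with LPS lay far above all arrays without it. LPS raised DRAM1 by a log2 fold change of 4.79 (SE 0.25, adjusted p = 1.4e-05), or 27.6-fold, after epirubicin and by 6.17 (SE 0.25, adjusted p = 3.8e-06), or 72.0-fold, without it.

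Among the 6 cargo receptors, which link ubiquitinated or marked cargo to ATG8 proteins, OPTN and SQSTM1 rose in both LPS comparisons. OPTN encodes optineurin, a receptor for bacteria and damaged mitochondria that is activated by TBK1. It measured 11.98 and 11.96 in epirubicin+LPS cells, 8.79 and 8.71 in epirubicin cells, 12.06 and 12.29 in LPS cells, and 9.14 and 9.20 in untreated cells. The 4 arrays with LPS lay above all others, and the log2 fold change was 3.22 (SE 0.22, adjusted p = 5.9e-05) with and 3.01 (SE 0.22, adjusted p = 8.3e-05) without epirubicin. SQSTM1 encodes p62, the receptor for ubiquitinated proteins. Its values were 16.41 and 16.42 in epirubicin+LPS cells, 14.95 and 14.90 in epirubicin cells, 16.18 and 16.17 in LPS cells, and 14.56 and 14.50 in untreated cells. The 4 groups did not overlap, and LPS gave 1.49 (SE 0.22, adjusted p = 0.00303) after epirubicin and 1.65 (SE 0.22, adjusted p = 0.00185) without it.

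BNIP3L, a mitochondrial outer membrane protein that recruits ATG8 proteins for mitophagy, moved the other way. It measured 12.20 and 12.50 in epirubicin+LPS cells, 13.22 and 13.40 in epirubicin cells, 12.20 and 12.17 in LPS cells, and 13.51 and 13.34 in untreated cells, so that no array with LPS reached any array without it. The log2 fold change was −0.96 (SE 0.24, adjusted p = 0.034) under LPS after epirubicin, just under 2-fold, and −1.24 (SE 0.24, adjusted p = 0.0115) under LPS without it. TAX1BP1, a receptor for ubiquitinated cargo, had −0.98 (SE 0.28, unadjusted p = 0.00811 from limma) under LPS without epirubicin, also just under 2-fold. NBR1 and CALCOCO2, which bind ubiquitinated protein and bacteria, had −0.47 and −0.17 there and did not pass.

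In the initiation complex, in which ULK1 or ULK2 act with RB1CC1, ATG13 and ATG101, only ATG101 passed. ATG101, which stabilizes ATG13, measured 7.89 and 8.53 in epirubicin+LPS cells, 7.16 and 6.98 in epirubicin cells, 7.68 and 8.18 in LPS cells, and 6.19 and 6.04 in untreated cells. Its log2 fold change was 1.14 (SE 0.30, adjusted p = 0.0435) under LPS after epirubicin and 1.82 (SE 0.30, adjusted p = 0.00605) under LPS without it. The first of these rests on the single arrays, as it was 0.82 (unadjusted p = 0.0400 from limma) without epirubicin+LPS replicate 2, and had a p above 0.01 also without epirubicin replicate 1 (1.23) or 2 (1.05). ULK1, the kinase itself, had −1.35 (SE 0.41, adjusted p = 0.0722) under LPS after epirubicin, with arrays of epirubicin cells that lay 1.33 apart, and −0.95 (SE 0.41, adjusted p = 0.203) without it. ULK2, RB1CC1 and ATG13 had values from −0.81 to 0.66 under LPS after epirubicin and from −0.51 to −0.04 without it.

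All 6 measured members of the PI3-kinase complexes had negative LPS values in both comparisons, and 2 passed without epirubicin. PIK3R4, the regulatory subunit VPS15, measured 8.21 and 7.92 in epirubicin+LPS cells, 8.61 and 8.84 in epirubicin cells, 7.29 and 7.39 in LPS cells, and 8.54 and 8.70 in untreated cells. The LPS cells lay lowest. Epirubicin+LPS cells had −0.66 (SE 0.24, adjusted p = 0.122) against epirubicin cells, and LPS cells −1.28 (SE 0.24, adjusted p = 0.0106) against untreated cells. UVRAG, which takes the place of ATG14 in the complex of late endosomes, measured 6.78 and 6.93 in epirubicin+LPS cells, 7.61 and 7.84 in epirubicin cells, 7.05 and 6.10 in LPS cells, and 7.72 and 8.40 in untreated cells. Its fall of −1.49 (SE 0.37, adjusted p = 0.0347) under LPS did not pass without LPS replicate 2 (−1.01) or untreated replicate 2 (−1.15), nor where only these groups were fitted. BECN1, the scaffold Beclin 1, PIK3C3, the catalytic subunit VPS34, ATG14, which directs the complex to autophagy, and AMBRA1, which binds Beclin 1, had values from −0.76 to −0.36 under LPS without epirubicin. ATG14 had −1.02 (SE 0.52, unadjusted p = 0.0845) after epirubicin, with epirubicin+LPS arrays 1.85 apart, the widest gap between duplicates among the members.

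In the ATG9, ATG2 and PI3P effector group 3 of 5 measured members fell under LPS after epirubicin and 4 of 5 without it, and no member was above 0. Of all probe sets 6.65% and 6.31% fell. Of the 11098 probe sets with a group mean of at least 6, 1292 fell after epirubicin and 1232 without it. ATG9A is the membrane protein of the vesicles from which the autophagosome grows. It measured 8.79 and 8.85 in epirubicin+LPS cells, 10.68 and 10.67 in epirubicin cells, 9.34 and 8.77 in LPS cells, and 11.25 and 11.33 in untreated cells. All arrays with LPS lay below all arrays without it, with log2 fold changes of −1.85 (SE 0.26, adjusted p = 0.00253) after epirubicin and −2.23 (SE 0.26, adjusted p = 9.6e-04) without it. WIPI1, which binds PI3P on the forming membrane, showed the same separation, with 10.17 and 10.27 in epirubicin+LPS cells, 11.80 and 11.36 in epirubicin cells, 10.17 and 9.86 in LPS cells, and 11.70 and 11.66 in untreated cells. Its log2 fold changes were −1.36 (SE 0.25, adjusted p = 0.0101) after epirubicin and −1.66 (SE 0.25, adjusted p = 0.00419) without it.

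WIPI2 recruits the ATG16L1 complex to PI3P. It measured 12.17 and 12.24 in epirubicin+LPS cells, 13.21 and 13.35 in epirubicin cells, 12.49 and 11.84 in LPS cells, and 13.17 and 13.22 in untreated cells. The LPS arrays were lower without overlap, and the fold changes lay at the 2-fold limit, −1.07 (SE 0.27, adjusted p = 0.037) after epirubicin and −1.03 (SE 0.27, adjusted p = 0.0443) without it. The first had a p above 0.01 without any 1 of its 4 arrays (−1.14 at the lowest), and the second was −0.71 without LPS replicate 2 and had a p above 0.01 also without untreated replicate 1 (−1.06) or 2 (−1.01). ATG2B, a lipid transfer protein, measured 6.29 and 6.18 in epirubicin+LPS cells, 7.46 and 6.63 in epirubicin cells, 6.15 and 6.53 in LPS cells, and 7.99 and 7.36 in untreated cells. Its fall of −1.33 (SE 0.35, adjusted p = 0.0443) under LPS without epirubicin was a call that ended without untreated replicate 1 (−1.02) or LPS replicate 1 (−1.15), and it had −0.81 (SE 0.35, adjusted p = 0.193) after epirubicin. ATG2A, its paralog, had −0.88 (SE 0.41, unadjusted p = 0.0642) after epirubicin and −0.84 (SE 0.41, unadjusted p = 0.0726) without it, with LPS arrays 1.06 apart.

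Of the 11 conjugation enzymes and proteases, only ATG4C passed under LPS. ATG4C is 1 of 4 cysteine proteases that process ATG8 proteins. It measured 6.48 and 6.54 in epirubicin+LPS cells, 9.59 and 9.18 in epirubicin cells, 6.83 and 6.60 in LPS cells, and 8.74 and 9.03 in untreated cells. All LPS arrays lay far below the others, with −2.88 (SE 0.25, adjusted p = 2.3e-04) after epirubicin and −2.17 (SE 0.25, adjusted p = 0.00102) without it. Its paralogs ATG4A, ATG4B and ATG4D had −0.02, 0.53 and 0.18 under LPS without epirubicin and did not pass in either LPS comparison. The enzymes that load and transfer ATG8 proteins, ATG7 and ATG3, had 0.06 and −0.49 there, the ATG12 conjugation partners ATG5 and ATG10 had −0.51 and −0.20, and ATG16L1 and ATG16L2, which place the conjugate on the membrane, had −0.01 and −0.10. ATG16L2 had group means below 6.

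The 5 ATG8 proteins, which coat the membrane and bind cargo receptors, had values on both sides of 0, and only MAP1LC3A passed. MAP1LC3A measured 5.64 and 5.57 in epirubicin+LPS cells, 3.89 and 3.94 in epirubicin cells, 5.92 and 5.97 in LPS cells, and 4.40 and 4.56 in untreated cells, so that both groups without LPS were near the background probes. It rose by 1.69 (SE 0.22, adjusted p = 0.00175) under LPS after epirubicin and by 1.46 (SE 0.22, adjusted p = 0.00389) without it. MAP1LC3B encodes LC3B, whose lipid-bound protein form is the usual readout of autophagosomes. It measured 12.06 and 11.80 in epirubicin+LPS cells, 11.54 and 11.46 in epirubicin cells, 11.60 and 11.61 in LPS cells, and 11.03 and 10.91 in untreated cells. Untreated cells lay lowest and epirubicin+LPS cells highest without overlap, but no comparison reached 2-fold, with 0.44 (SE 0.23, adjusted p = 0.282) under LPS after epirubicin and 0.63 (SE 0.23, adjusted p = 0.126) under LPS without it. GABARAP, GABARAPL1 and GABARAPL2 had −0.49, −0.30 and 0.12 under LPS without epirubicin.

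**Figure D2:**
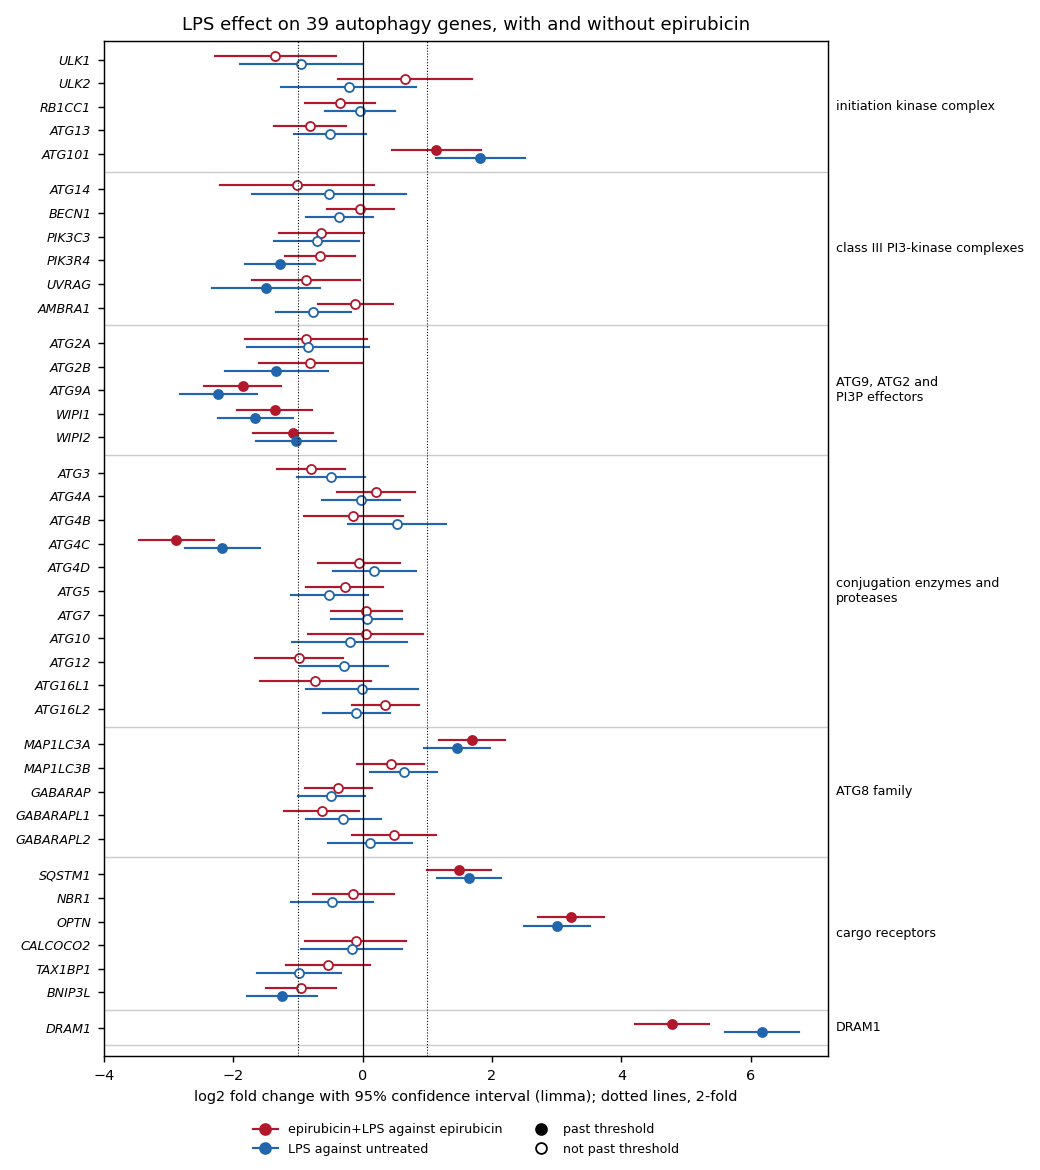
LPS effect on the 39 members by role, as log2 fold change with 95% confidence interval from limma, for epirubicin+LPS against epirubicin and for LPS against untreated, with filled points past the threshold and dotted lines at 2-fold. DRAM1 stands at 4.79 and 6.17 and OPTN at 3.22 and 3.01, and all 5 members of the ATG9, ATG2 and PI3P effector group lie below 0.

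The LPS effects with and without epirubicin come from separate arrays and ran closely together over the members, with Pearson's r of 0.946 and Spearman's rho of 0.846 across 39 genes, which are not independent replicates, and 0.915 and 0.833 without DRAM1. Over all probe sets the values were 0.805 and 0.571. The 9 members that passed with epirubicin also passed without it, and ATG2B, BNIP3L, PIK3R4 and UVRAG passed only without it. For these 4 the difference between the LPS effects was 0.28 to 0.62 and did not pass, with 95% intervals that reach from −0.61 to 1.80. The median difference over the members was 0.07, against 0.01 for all probe sets. Only DRAM1 passed in the test of this difference, 1 of 39 members, where 1.64% of all probe sets passed (0.737% higher and 0.9% lower). Its LPS effect after epirubicin differed by −1.38 (SE 0.35, unadjusted p = 0.00419 from limma) on the log2 scale from that without it, which did not hold after adjustment (adjusted p = 0.559), where 0.00479% of all probe sets had an adjusted p up to 0.05 and 7.38% an unadjusted one. The next largest differences were 0.87 (SE 0.64) for ULK2, −0.72 (SE 0.53) for ATG16L1, −0.71 (SE 0.36) for ATG4C, −0.70 (SE 0.42) for ATG12, −0.68 (SE 0.42) for ATG101, −0.67 (SE 0.47) for ATG4B and 0.65 (SE 0.36) for AMBRA1, with unadjusted p from 0.0823 to 0.212.

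Few members passed in the comparisons of epirubicin. With LPS 1 of 39 passed, DRAM1, which fell, where 2.73% of all probe sets passed (1.29% higher and 1.44% lower). Without LPS 1 of 39 passed, ATG12, which rose, where 2.28% of all probe sets passed (1.07% higher and 1.22% lower). Adjusted p-values up to 0.05 in limma were held by 0 members in either comparison, where 0.124% of all probe sets with and 0.0144% without LPS held one. Unadjusted p-values up to 0.05 were held by 4 members with LPS and 5 without, where 10.9% and 10.3% of all probe sets held one. The median log2 fold changes were 0.02 with and −0.04 without LPS, against 0.0058 and −0.0034 over all probe sets.

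ATG12 is the ubiquitin-like protein that is joined to ATG5. It measured 8.73 and 8.16 in epirubicin+LPS cells, 9.41 and 9.45 in epirubicin cells, 7.90 and 7.97 in LPS cells, and 8.51 and 7.92 in untreated cells. Both epirubicin arrays lay above all others, and epirubicin+LPS cells above LPS cells without overlap. The log2 fold change was 0.51 (SE 0.30, adjusted p = 0.583) with LPS and 1.21 (SE 0.30, unadjusted p = 0.0033 and adjusted p = 0.244 from limma), or 2.31-fold, without LPS. The call without LPS ended without untreated replicate 2 (0.91), epirubicin replicate 1 (1.23) or epirubicin replicate 2 (1.19). Under LPS after epirubicin ATG12 was lower by just under 2-fold, −0.98 (SE 0.30, adjusted p = 0.0701).

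DRAM1, with the array values given above, was lower in epirubicin+LPS than in LPS cells by −1.05 (SE 0.25, unadjusted p = 0.00281 and adjusted p = 0.185 from limma), or 2.07-fold, with both epirubicin+LPS arrays below both LPS arrays. Without LPS it had 0.33 (SE 0.25, adjusted p = 0.698), with both epirubicin arrays just above the untreated arrays. The fall did not pass without LPS replicate 1 (−1.04), LPS replicate 2 (−1.06) or epirubicin+LPS replicate 2 (−0.95).

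SQSTM1 and MAP1LC3B were higher with epirubicin in every array, with and without LPS, by amounts below 2-fold. SQSTM1 had 0.24 (SE 0.22, adjusted p = 0.74) with and 0.39 (SE 0.22, adjusted p = 0.576) without LPS, and MAP1LC3B had 0.33 (SE 0.23, adjusted p = 0.648) with and 0.53 (SE 0.23, adjusted p = 0.475) without LPS. With a prior variance that depends on the mean level and calls by adjusted p, an alternative chosen after the data were seen, the limma adjusted p of SQSTM1 was 0.0384 without LPS. That setting called 0 members with LPS and SQSTM1 alone without LPS, where 1.93% and 1.45% of all probe sets were called. Averaged over both LPS states it called ATG12 (adjusted p = 0.0358), SQSTM1 (adjusted p = 0.00779) and GABARAP (a value of −0.30, adjusted p = 0.0296), where 4.23% were called. It called 16 members under LPS after epirubicin, 18 under LPS without it and 0 for the difference of the LPS effects, where 17.4%, 16.7% and 0.215% were called.

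Members of the PI3-kinase complexes had mostly positive values with epirubicin under LPS, 5 of 6 with a median of 0.43, against 0.0058 over all probe sets. PIK3R4 led at 0.72 (SE 0.24, adjusted p = 0.321), followed by BECN1 at 0.55 (SE 0.23, adjusted p = 0.437), and none passed. The same LPS arrays entered the comparison of LPS with untreated cells, where all 6 had negative values, so these are not separate observations. The initiation factor ATG101 had 0.28 (SE 0.30, adjusted p = 0.789) with LPS, where the arrays overlapped, and 0.96 (SE 0.30, adjusted p = 0.341) without LPS, with both epirubicin arrays above both untreated arrays. With LPS, ATG2A and ATG16L2 both had 0.64 (SE 0.41 and 0.23, unadjusted p = 0.156 and 0.0213). Without LPS, ATG16L1, ATG2A and ATG4B had 0.71 (SE 0.38, unadjusted p = 0.0943), 0.67 (SE 0.41, unadjusted p = 0.138) and 0.65 (SE 0.33, unadjusted p = 0.0852). On the negative side ATG13 had −0.53 (SE 0.24) with LPS, and ATG2B, ATG9A and MAP1LC3A had −0.63 (SE 0.35), −0.61 (SE 0.26) and −0.57 (SE 0.22) without LPS, all with adjusted p from 0.431 to 0.585.

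**Figure D3:**
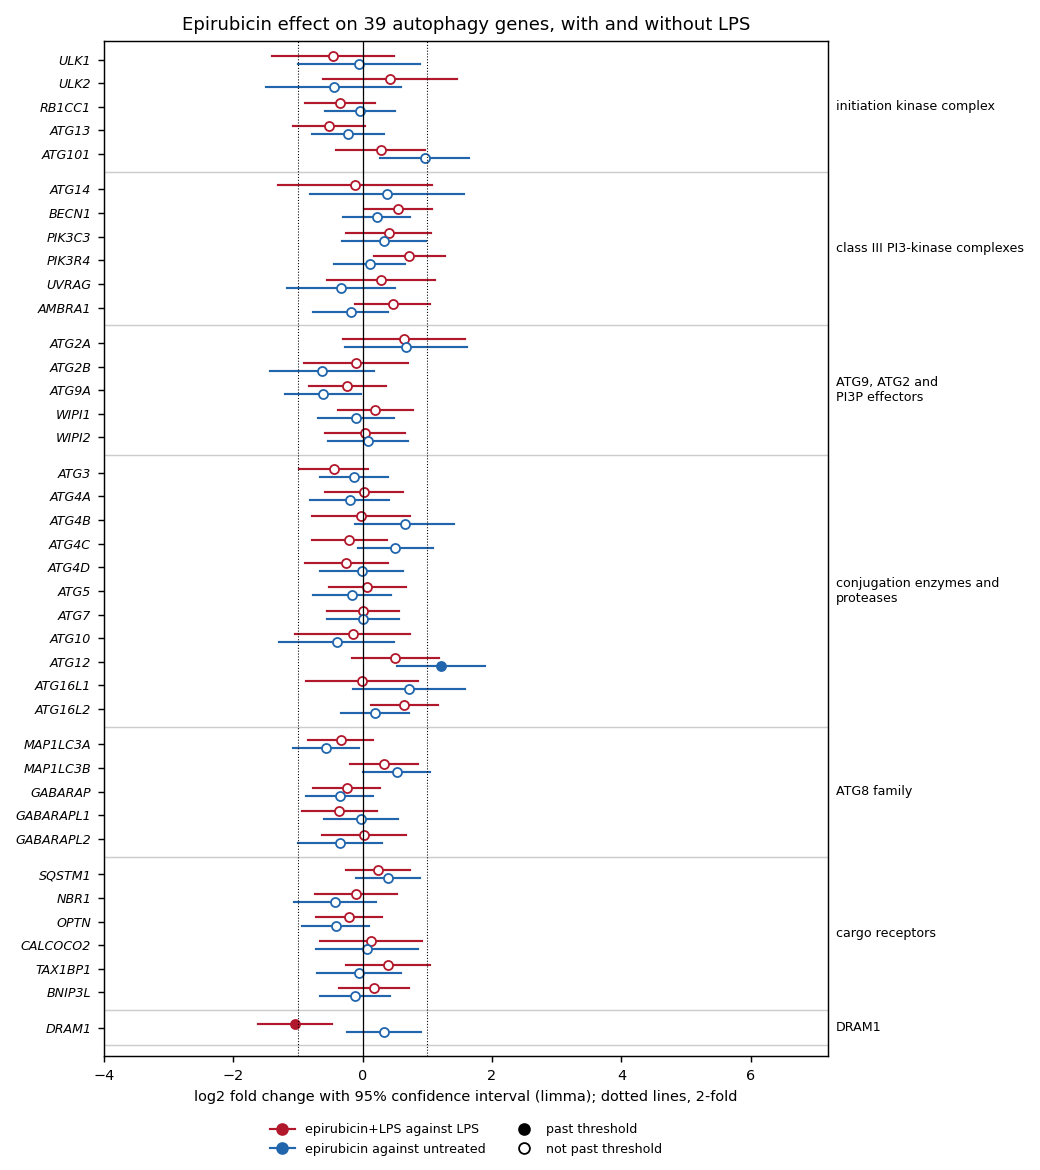
Epirubicin effect on the 39 members by role, as log2 fold change with 95% confidence interval from limma, for epirubicin+LPS against LPS and for epirubicin against untreated, with filled points past the threshold and dotted lines at 2-fold. The 2 filled points are DRAM1 at −1.05 with LPS and ATG12 at 1.21 without, and 24 of 39 intervals lie within 2-fold in each comparison.

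Averaged over both LPS states, which sets 4 arrays against 4, none of the 39 members passed, where 1.48% of all probe sets did. By unadjusted p up to 0.05 there were 8 members (limma), 6 higher and 2 lower, where 13.8% of all probe sets were. By adjusted p up to 0.05 there were 0, where 0.479% were. ATG12 had the largest averaged value, 0.86 (SE 0.21, adjusted p = 0.129), followed by ATG2A at 0.66 (SE 0.29, unadjusted p = 0.0523) and ATG101 at 0.62 (SE 0.21, unadjusted p = 0.0186). ATG16L2 had 0.42 (SE 0.16, unadjusted p = 0.0306) and BECN1 0.38 (SE 0.16, unadjusted p = 0.0435). The 2 lower members were MAP1LC3A at −0.45 (SE 0.16, unadjusted p = 0.019) and ATG9A at −0.42 (SE 0.18, unadjusted p = 0.048). The 95% intervals of the averaged effect lay within 2-fold in either direction for 36 members, and those of ATG12, ATG2A and ATG101 reached 2-fold. In the separate comparisons 24 of 39 intervals lay within 2-fold with LPS and 24 without LPS, at a median half-width of 0.60 on the log2 scale. With 2 arrays per group, changes smaller than this mostly had intervals that included 0. Changes below 2-fold could not pass the threshold at all.

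The epirubicin effects with and without LPS also come from separate arrays. Of the 39 members 12 were higher in both, 13 lower in both and 14 had opposite signs, with Pearson's r of 0.308 and Spearman's rho of 0.329 across these genes and 0.411 and 0.391 without DRAM1, against 0.243 and 0.204 over all probe sets. Both epirubicin+LPS arrays lay above both LPS arrays in 9 members and below in 10, where 21.3% and 20.3% of all probe sets did. Both epirubicin arrays lay above both untreated arrays in 11 members and below in 8, where 20.5% and 21% did. For the LPS effect the counts were 9 above and 21 below with epirubicin, where 23.6% and 28.8% did, and 6 above and 21 below without epirubicin, where 23.1% and 29.8% did.

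Genes around the core machinery were read from 4 lists that leave out the members. Of 30 regulators of autophagy in the TFEB, FOXO, AMPK and mTORC1 pathways, all measured, 12 passed under LPS after epirubicin (5 higher, 7 lower) and 10 under LPS without it (3 higher, 7 lower), where 12.2% and 11.7% of all probe sets passed. In the comparisons of epirubicin 3 passed with LPS (2 higher, 1 lower) and 1, lower, without LPS, where 2.73% and 2.28% of all probe sets passed. DDIT4L, an inhibitor of mTORC1 that favours autophagy, measured 6.17 and 6.49 in epirubicin+LPS cells, 12.56 and 12.34 in epirubicin cells, 7.62 and 7.50 in LPS cells, and 13.91 and 13.66 in untreated cells. The 4 groups did not overlap, as LPS lowered DDIT4L and epirubicin lowered it further in both LPS states. The epirubicin effect was −1.23 (SE 0.24, adjusted p = 0.131) with LPS, −1.34 (SE 0.24, adjusted p = 0.159) without LPS and −1.29 (SE 0.17, adjusted p = 0.0271) averaged over both.

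DDIT4, the paralog of DDIT4L and likewise an inhibitor of mTORC1, moved in the opposite direction. It measured 11.12 and 10.85 in epirubicin+LPS cells, 8.36 and 8.50 in epirubicin cells, 11.33 and 11.37 in LPS cells, and 8.14 and 7.75 in untreated cells. Both LPS groups lay above both groups without LPS, with log2 fold changes of 2.55 (SE 0.25, adjusted p = 3.7e-04) after epirubicin and 3.40 (SE 0.25, adjusted p = 7.3e-05) without it. BCL2, an inhibitor of apoptosis that also holds Beclin 1, rose by 3.22 (SE 0.35, adjusted p = 6.8e-04) under LPS after epirubicin. Without epirubicin it rose by 3.24 (SE 0.35, adjusted p = 6.5e-04). The sestrins, stress-induced proteins that inhibit mTORC1, did not all move alike. SESN1 fell, with −4.27 (SE 0.34, adjusted p = 1.2e-04) under LPS after epirubicin and −3.72 (SE 0.34, adjusted p = 2.5e-04) without it. SESN3 also fell in both, with −2.02 (SE 0.44, adjusted p = 0.0208) and −1.94 (SE 0.44, adjusted p = 0.0254). SESN2 rose under LPS after epirubicin, with 1.535 (SE 0.38, adjusted p = 0.034). It had 0.89 (SE 0.38, adjusted p = 0.197) without epirubicin, and the difference of 0.65 (SE 0.53, adjusted p = 0.869) did not pass.

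SESN2 measured 10.29 and 10.43 in epirubicin+LPS cells, 8.98 and 8.67 in epirubicin cells, 9.21 and 8.16 in LPS cells, and 8.09 and 7.50 in untreated cells. The epirubicin+LPS arrays were highest, and SESN2 was higher with epirubicin by 1.68 (SE 0.38, adjusted p = 0.168) under LPS and by 1.36 (SE 0.27, adjusted p = 0.0821) averaged over both LPS states. FOXO1, a transcription factor of autophagy genes, measured 5.28 and 5.52 in epirubicin+LPS cells, 7.74 and 7.36 in epirubicin cells, 4.58 and 4.15 in LPS cells, and 7.12 and 7.16 in untreated cells. It fell under LPS, with −2.15 (SE 0.26, adjusted p = 0.00131) after epirubicin and −2.77 (SE 0.26, adjusted p = 3.4e-04), to near the background probes, without epirubicin. FOXO1 was higher by 1.03 (SE 0.26, adjusted p = 0.208) in epirubicin+LPS than in LPS cells.

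**Figure D4:**
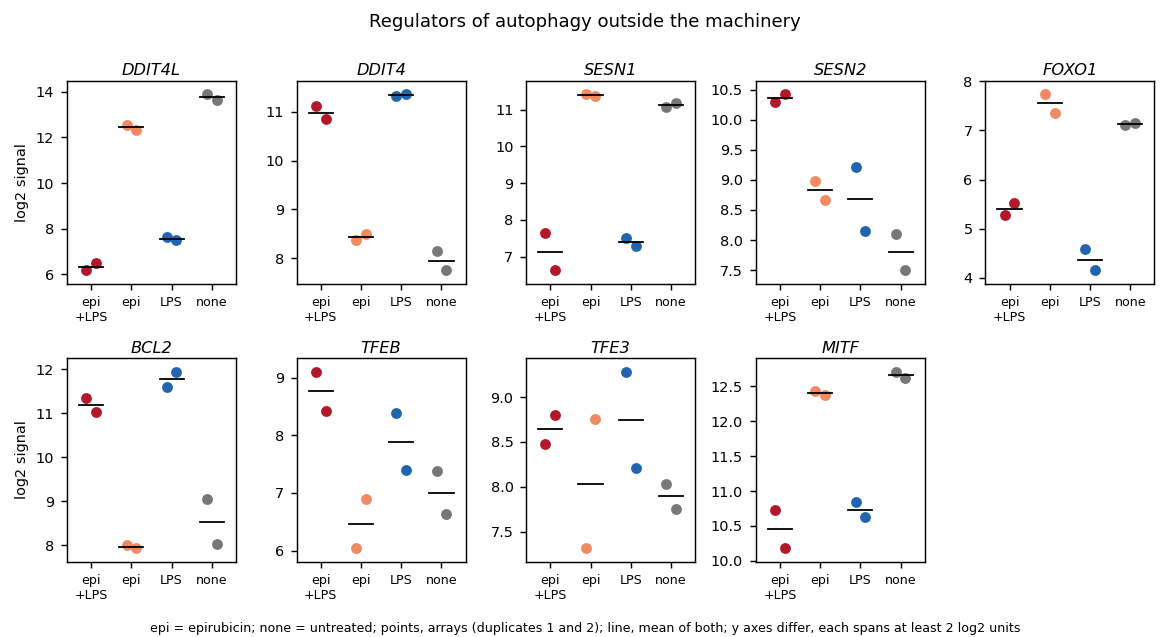
Log2 signal of 9 regulators of autophagy, with a point per array, a line for the mean of both arrays, and groups from left to right epirubicin+LPS, epirubicin, LPS and untreated. DDIT4L spans 6.17 to 13.91 over the 8 arrays, with every LPS array below every array without LPS, while DDIT4 and BCL2 run the other way.

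TFEB, TFE3 and MITF, the related transcription factors of lysosomal and autophagy genes, were singled out after their values were seen. TFEB measured 9.11 and 8.42 in epirubicin+LPS cells, 6.04 and 6.90 in epirubicin cells, 8.38 and 7.39 in LPS cells, and 7.37 and 6.64 in untreated cells. It rose under LPS after epirubicin, with 2.30 (SE 0.46, adjusted p = 0.0141), and had 0.88 (SE 0.46, adjusted p = 0.293) under LPS without it, while the difference of 1.41 (SE 0.65, adjusted p = 0.704) did not pass. MITF fell in both LPS comparisons, with −1.95 (SE 0.26, adjusted p = 0.00198) after epirubicin and −1.93 (SE 0.26, adjusted p = 0.00216) without it, and TFE3 had 0.60 (SE 0.50) and 0.86 (SE 0.50) and did not pass.

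Among 14 measured genes of autophagosome and lysosome fusion, 4 fell in each LPS comparison and none rose, where 6.65% of all probe sets fell after epirubicin and 6.31% without it. With a group mean of at least 6, 1292 of 11098 probe sets fell after epirubicin and 1232 without it. SNAP29, the SNARE that acts with STX17 on autophagosomes, measured 11.34 and 11.10 in epirubicin+LPS cells, 13.52 and 13.28 in epirubicin cells, 11.41 and 11.58 in LPS cells, and 13.38 and 13.31 in untreated cells. No array with LPS reached an array without it, and the fold changes were −2.18 (SE 0.24, adjusted p = 6.4e-04) after epirubicin and −1.85 (SE 0.24, adjusted p = 0.00159) without it. VPS11, a subunit of the HOPS tether, had −1.96 (SE 0.26, adjusted p = 0.0019) and −1.79 (SE 0.26, adjusted p = 0.00316), and STX7, a late endosomal SNARE, −1.50 (SE 0.27) in both. Of the other HOPS subunits VPS33A fell under LPS after epirubicin, with −1.16 (SE 0.28, adjusted p = 0.0328), and VPS39 without it, with −1.04 (SE 0.24, adjusted p = 0.027). Both were also lower in the other LPS comparison without passing. VPS33A had group means of 9.31 in LPS and 10.03 in untreated cells, and VPS39 10.34 in epirubicin+LPS and 11.33 in epirubicin cells. None of the 14 genes passed in either comparison of epirubicin or for the difference of the LPS effects.

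Of 12 measured receptors for organelles, TEX264, a receptor for the endoplasmic reticulum, fell in both LPS comparisons, with −2.12 (SE 0.30, adjusted p = 0.0029) after epirubicin and −2.46 (SE 0.30, adjusted p = 0.00138) without it. NCOA4, the receptor for ferritin, rose by 1.42 (SE 0.23, adjusted p = 0.00547) under LPS after epirubicin. Without epirubicin it was also higher, with group means of 14.35 in LPS and 13.58 in untreated cells, but did not pass. Of 13 further autophagy factors, SNX30, a sorting nexin, fell in both, with −2.43 (SE 0.30, adjusted p = 0.00133) and −2.20 (SE 0.30, adjusted p = 0.00235), and TRAPPC8, a subunit of a tethering complex, fell after epirubicin with −1.23 (SE 0.32, adjusted p = 0.0418). TRAPPC8 was also lower without epirubicin, with group means of 10.3 in LPS and 11.33 in untreated cells, but did not pass. No gene of these lists passed in either comparison of epirubicin or for the difference of the LPS effects.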

How the data were processed

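The authors deposited log2 values of 8 Clariom S HT arrays, processed together with SST-RMA according to the methods and RMA according to the sample labels, and with no version given in the sources used here. Both correct for background, normalize the arrays together and summarize the probes of each probe set. Small changes near background may be compressed in such values, which was not tested. The values were used as deposited. Of 24351 rows, 3458 without a gene transcript cluster identifier (controls and 555 unmapped clusters) were dropped. The tests ran on the remaining 20893 gene probe sets, 17705 with 1 symbol in the platform table and 3188 with none. Where several probe sets share a symbol, the one with the highest mean stands for the gene.

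Comparisons came from a limma model (version 3.58.1, R 4.3.3) with a mean for each of 4 groups and 4 residual degrees of freedom, with 4.25 more from the moderated prior. A gene passed where its unadjusted p was no higher than 0.01 and its change 2-fold or more, the threshold of the study for single genes. Adjusted p-values are Benjamini-Hochberg over all probe sets. "Rose" and "fell" are used for genes past the threshold. The precision is limited by the number of arrays. Replicate numbers did not pair the arrays, since deviations from the group means correlated at −0.01 to 0.02.

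The members are defined by gene name alone, with no measured value in the rule, but they, the lists and the tests on them were chosen with earlier results of these data known. Array values are given for members past the threshold in any comparison and for SQSTM1 and MAP1LC3B, and up to 3 further members per comparison are named by the size of their change. In the lists around the core machinery up to 4 genes per comparison are named, by smallest p, and SESN3 is named in addition. The alternatives tried were another variance prior, a fit of only the groups compared, quantile normalization, median centring, a filter at a log2 value of 6, the mean over probe sets, the replicate number as a block, leaving out each array, other call rules, and the unmapped clusters included. The script was tested on simulated data. The R package data.table (version 1.17.8) read the files, and plots were made in Python 3.11.15 using matplotlib 3.10.9.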

Additional observations from a re-analysis of the deposited data

Results flagged for a closer look

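The LPS effect on DRAM1 differed between cells with and without epirubicin by −1.38 on the log2 scale (SE 0.35, unadjusted p = 0.00419 and adjusted p = 0.559 from limma), by the test of the difference itself. The effect was 4.79 after epirubicin, against 6.17 without it. It was the only difference of this kind among the 39 members past the threshold, and its adjusted p did not pass. The value ranged from −1.62 to −1.15 when 1 array was left out, and the call ended without untreated replicate 2 (−1.15), LPS replicate 1 (−1.37) or 2 (−1.39), epirubicin replicate 1 (−1.33) or 2 (−1.44), or epirubicin+LPS replicate 2 (−1.29). The cause was not tested.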

How the results depend on the processing

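Directions were followed for members in comparisons where they passed, and for SQSTM1 and MAP1LC3B in all comparisons. None of these reversed under any alternative run. Another prior, a fit of only the groups compared or another call rule leaves the log2 fold change as it was, so no reversal was possible there. The same holds for the filter on low values, the replicate block and the unmapped clusters. It also holds where the array left out was in none of the groups compared. The directions of the remaining members were not followed. With the replicate number as a block, 1 member passed with epirubicin without LPS, 1 with LPS, 13 under LPS, 10 under LPS after epirubicin, 1 in the difference of the LPS effects and 0 in the averaged epirubicin effect, so that no count moved by over 1.5 times. Among 39 members, leaving out 1 array at a time gave 0 to 1 for epirubicin without LPS, 0 to 1 with LPS, 11 to 13 for LPS, 7 to 10 for LPS after epirubicin, 0 to 1 for the difference and 0 to 1 for the averaged effect. At an unadjusted p of at most 0.05 the counts were 5 for epirubicin without LPS, 4 with LPS, 18 for LPS after epirubicin and 8 averaged. At an adjusted p of at most 0.05 they were 0 for epirubicin without LPS, 0 with LPS and 0 for the difference (limma). With a mean-dependent robust prior and an adjusted p of at most 0.05, chosen after seeing the data, they were 0 for epirubicin with LPS, 16 for LPS after epirubicin, 0 for the difference and 3 averaged (ATG12, GABARAP and SQSTM1). Counted over these members, comparisons and settings, 333 results were unchanged, 3 gained a call (MAP1LC3B at an unadjusted p of at most 0.05) and 7 lost it. Of those that leave out 1 array, 254 were unchanged and 26 lost the call. The unchanged results include comparisons of SQSTM1 and MAP1LC3B that had no call to lose. The mean over probe sets could not change the log2 value of a member, as each had 1 probe set. WIPI2 under LPS had −0.96 with median centring, UVRAG −1.49 and WIPI2 −1.03 with only the groups compared, and ATG101 under LPS after epirubicin 1.14, none of them past the threshold there. A fit of only 2 groups has fewer arrays, and the cause of the other changes was not tested. With 2 arrays per group the 95% intervals had a median half-width of 0.60 on the log2 scale in each single comparison, and MAP1LC3A and ATG16L2, with all group means below 6, lay near background.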
